A study of Mus musculus with 12 samples.

Results

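The prolactin receptor and the STAT5 pathway were followed in mouse prostate cells sorted as luminal, the epithelial cells that line the ducts, through 6 genes: Prlr, Stat5a, Stat5b, Jak2, Cish and Socs2. The genes were taken by symbol from a table of 48795 Ensembl identifiers, and all 6 passed the filter on low counts, among 15270 genes tested. The set was chosen by the Prlr counts of cells with high surface SCA1, in which Prlr was nearly absent, so for the 6 genes comparisons of SCA1high with other SCA1 levels are given as a description without a test. Every library came from C57BL/6 wild type mice, 6 to 8 weeks old. Cells negative for CD31, CD45 and Ter119 were gated on whether LY6D was on the surface and on a low, intermediate (int) or high amount of SCA1. This gave LY6D+ SCA1low, LY6D+ SCA1int and LY6D+ SCA1high cells, and LY6D- SCA1low, LY6D- SCA1int and LY6D- SCA1high cells, with 2 libraries each. No agent or allele was compared, so the groups differ only by what the sort separated. Each library was made from 10 to 20 ng of RNA and counts tags at the 3' ends of transcripts. Levels are in CPM, that is, counts set to the same library total, with TMM factors that bring most genes to a common level. The design text calls the replicates biological without saying whether they were separate animals or pools. The p-values therefore rest on the spread of these libraries alone.

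Prolactin is a pituitary hormone that binds its receptor, the product of Prlr, a single-pass receptor of the cytokine receptor class. The receptor has no kinase of its own and works through the tyrosine kinase JAK2, which phosphorylates the transcription factors STAT5A and STAT5B. STAT5 turns on Cish and Socs2, whose products dampen the signal in a feedback loop, and in rodents prolactin acting through STAT5 is known to promote growth of the prostate epithelium.

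Library totals ran from 8436185 to 20022077 counts, and 7512 to 12202 genes had at least 10 counts. The genes of the sorted proteins followed the gates. Ly6d stood at 37.0 to 397 CPM in LY6D+ libraries and at 0.433 to 3.85 CPM in LY6D- libraries. Ly6a, which encodes SCA1, stood at 3.37 to 68.8 CPM in SCA1low, 44.9 to 148 CPM in SCA1int and 181 to 593 CPM in SCA1high libraries. The luminal keratin genes Krt8 and Krt18 were read in every library, at 66.4 to 276 CPM and 108 to 502 CPM. The basal keratin gene Krt5 was also read, at 186 to 608 CPM in LY6D+ and 3.76 to 199 CPM in LY6D- libraries, so the sorted LY6D+ cells did not lack basal transcripts. In LY6D+ SCA1int and LY6D+ SCA1high the basal markers summed to more than the luminal ones, so by these sums the name luminal did not describe those libraries. Krt15 alone held 1482 to 2734 CPM of the basal sum there, and the order of the sums rested largely on that gene. Pecam1, which encodes the CD31 used to exclude endothelium, stood at 401 to 573 CPM in LY6D- SCA1high, against 2.43 to 159 CPM in the other populations. LY6D- SCA1low replicate 2 and LY6D+ SCA1high replicate 2 had stood apart in earlier work on these data, and results were also computed without them.

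**Figure D1:**
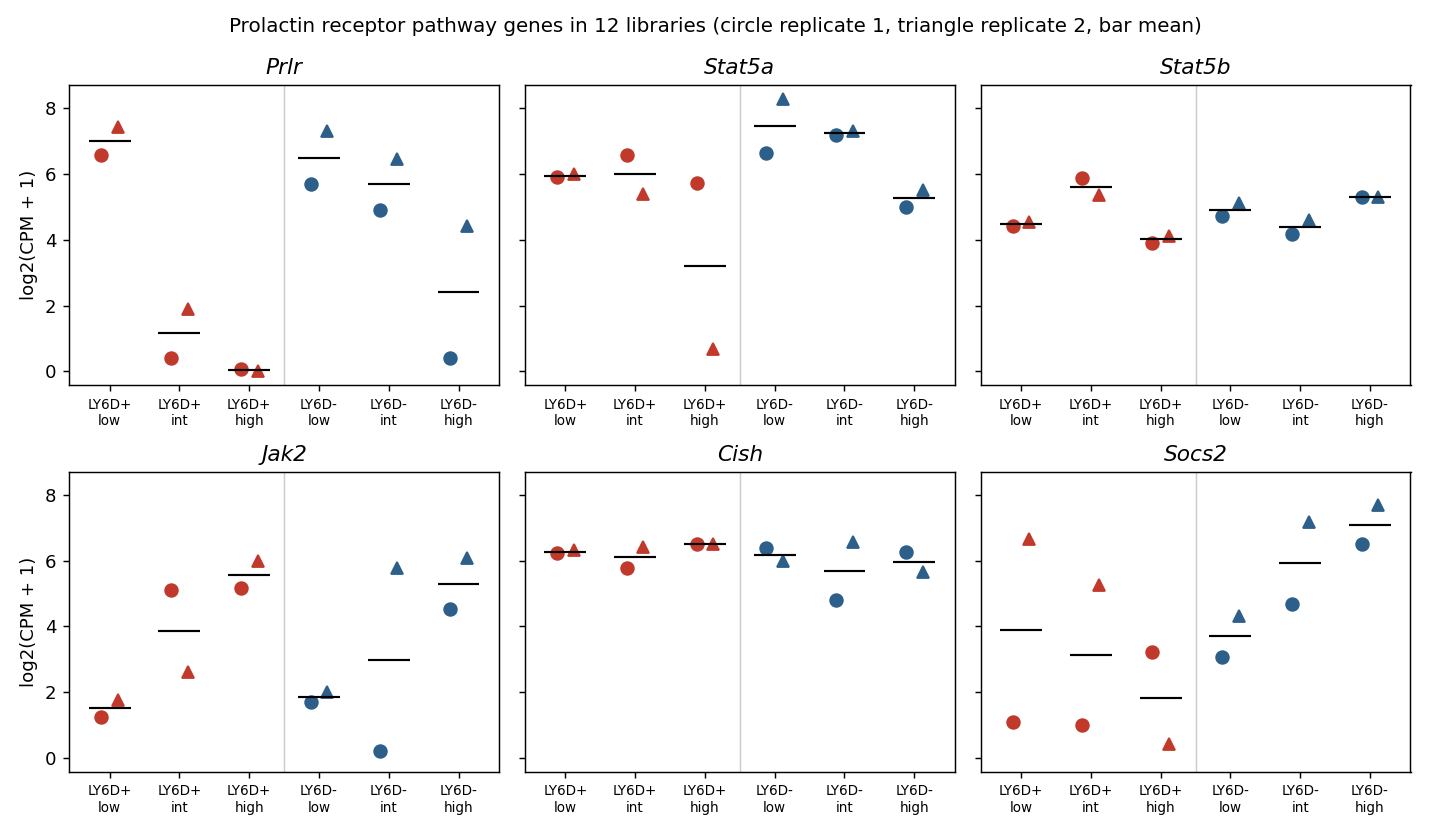
Level of each of the 6 genes, as log2(CPM + 1), in the 12 libraries (circle replicate 1, triangle replicate 2, bar the mean of 2; LY6D+ red, LY6D- blue; SCA1 low to high from left to right). Prlr is lowest in LY6D+ SCA1int and SCA1high and in LY6D- SCA1high replicate 1, Jak2 is low in the 4 SCA1low libraries, and Cish stays between 26.8 and 92.8 CPM in every library.

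Prlr was high at SCA1low in both LY6D states, high at SCA1int in LY6D- but not in LY6D+ cells, and low at SCA1high in all but 1 library. It had 94.7 and 169 CPM in LY6D+ SCA1low, 0.324 and 2.75 CPM in LY6D+ SCA1int, and 0.045 and 0 CPM in LY6D+ SCA1high. In LY6D- cells it had 50.5 and 156 CPM at SCA1low, 29.1 and 85.7 CPM at SCA1int, and 0.313 and 20.1 CPM at SCA1high. The phrase "nearly absent from SCA1high" thus fitted 3 of the 4 SCA1high libraries, with 1, 0 and 4 counts, and not LY6D- SCA1high replicate 2, with 475 counts. Ordered by mean, the populations ran LY6D+ SCA1low, LY6D- SCA1low, LY6D- SCA1int, LY6D- SCA1high, LY6D+ SCA1int and LY6D+ SCA1high. Of the 5 neighbouring pairs in this order, 3 overlapped, and the breaks fell below LY6D- SCA1int and above LY6D+ SCA1high. Such counts of pairs were not made for all tested genes, here or for the other members.

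Prlr (ENSMUSG00000005268) lies on chromosome 15, 10177238 to 10349180 on the plus strand of GRCm38, and 7 of its 12 annotated transcripts are coding, with 7 distinct 3' ends. The count sums all of them, so the long receptor form and the short forms, which differ at the 3' end, are not separated. Another gene, Gm21973, lies on the same strand over the last 23801 bases of Prlr, and 285 of its 293 counts were in LY6D+ SCA1low replicate 1. RefSeq start windows on GRCm38.p6 were available for 5 of the 6 genes, 9 windows in all, each with 250 bases before and 50 after a start. They were searched for TTCNNNGAA, the palindromic letters that STAT5 dimers are known to bind, which read the same on both strands. The letters occurred in 1 of 3 Prlr windows and in the Cish window, and in 8.3% of all 32851 windows. The Prlr window is shown because the Prlr counts chose the set, with the match in capitals. It spans chr15:10223656-10223905 (plus strand, GRCm38.p6), the 250 bases before the start.
Prlr, second start: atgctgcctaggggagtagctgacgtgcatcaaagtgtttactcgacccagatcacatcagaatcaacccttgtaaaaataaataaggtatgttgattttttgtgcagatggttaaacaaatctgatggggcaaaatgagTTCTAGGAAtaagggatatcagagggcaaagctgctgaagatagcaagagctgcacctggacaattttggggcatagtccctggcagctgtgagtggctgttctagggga

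A match of letters is a description and does not show that STAT5 binds there, and 3' tags do not tell which start was used.

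LY6D+ against LY6D- cells is another contrast than the one along SCA1 that chose the genes, but wherever it includes SCA1high it uses the Prlr counts that chose them. The Prlr values for the average over 3 levels and for SCA1high are therefore not independent of the choice. On that average Prlr fell in LY6D+ cells, and it was the only gene of the 6 called. The log2 fold change was -4.31 ± 0.96 (SE; edgeR quasi-likelihood test, p adjusted after Benjamini and Hochberg across the whole table, adjusted p = 0.011). As plain means of 6 libraries Prlr averaged 44.4 CPM in LY6D+ and 56.9 CPM in LY6D- cells, with ranges that overlapped. The fitted fold instead averages the log2 differences within each level, and it depends on the small count edgeR adds where a group is near 0. Of all tested genes, 2.48% were called in this comparison and 1.21% were called lower, and unadjusted p-values below 0.05 were found for 1 of the 6 and for 20.4% of all tested genes. In a fit of the 8 libraries that are not SCA1high, chosen after seeing the data, the average over SCA1low and SCA1int was -2.43 ± 0.81 and did not pass (adjusted p = 0.161). The call also rested on 1 library: without LY6D- SCA1high replicate 2 the log2 fold change was -2.66 ± 0.91 (adjusted p = 0.104), while without replicate 1 of that population it was -4.64 ± 0.92 (adjusted p = 0.000101). It was also lost with limma-trend on the deposited normalised values, at -2.10 ± 0.86 (adjusted p = 0.267). Over the 19 other alternatives it was called in 17, with adjusted p from 2.89e-05 to 0.267.

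Within single SCA1 levels the Prlr difference was of unequal size, and edgeR called 0 of the 6 genes at each level. At SCA1high the 2 LY6D+ libraries held 1 Prlr count together, against 479 in the 2 LY6D- libraries, 475 of them in replicate 2. Per unit of depth the LY6D- libraries held 405 times the Prlr of the LY6D+ libraries. The exact 95% interval, 72.3 to 16014, covers at most counting error and not the spread between libraries. The log2 fold change there was -8.08 ± 2.02 (edgeR adjusted p = 0.109). At SCA1int the sums were 58 counts in LY6D+ against 1563 in LY6D-. That was a level 32.5 times as high in LY6D- (exact 95% interval 25.0 to 42.9, again without the spread between libraries). The log2 fold change was -5.21 ± 1.66 (edgeR adjusted p = 0.665). The libraries of LY6D+ and LY6D- did not overlap at either level, which 21.6% of tested genes also did, lower in LY6D+, at SCA1high and 17.3% at SCA1int. At SCA1low the libraries overlapped, with 94.7 and 169 CPM in LY6D+ against 50.5 and 156 CPM in LY6D-, and the log2 fold change was 0.35 ± 1.38 (adjusted p = 0.94). The span of 2 SE on either side, -2.41 to 3.12, includes changes of more than 2-fold either way.

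Within a level the number of calls depended on the tool. Of all tested genes edgeR called 0.262% at SCA1high, 0.203% at SCA1int and 0.472% at SCA1low, and DESeq2 called 8.21%, 3.94% and 12.6% of those it tested. Unadjusted p-values below 0.05 were found for 2, 1 and 0 of the 6 genes at SCA1high, SCA1int and SCA1low, where 11.7%, 6.17% and 12% of tested genes had them. DESeq2 called 2, 1 and 0 of the 6, Prlr and Socs2 at SCA1high and Prlr at SCA1int. The Prlr difference at SCA1high was also called by edgeR in 9 of 12 fits that left out 1 library, among them the fit without LY6D- SCA1high replicate 1 (-9.10 ± 2.0, adjusted p = 0.00265). It was not called without LY6D- SCA1high replicate 2 or without either LY6D+ SCA1high library. All these fits reuse the SCA1high Prlr counts that chose the genes, so they add no independent support.

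**Figure D2:**
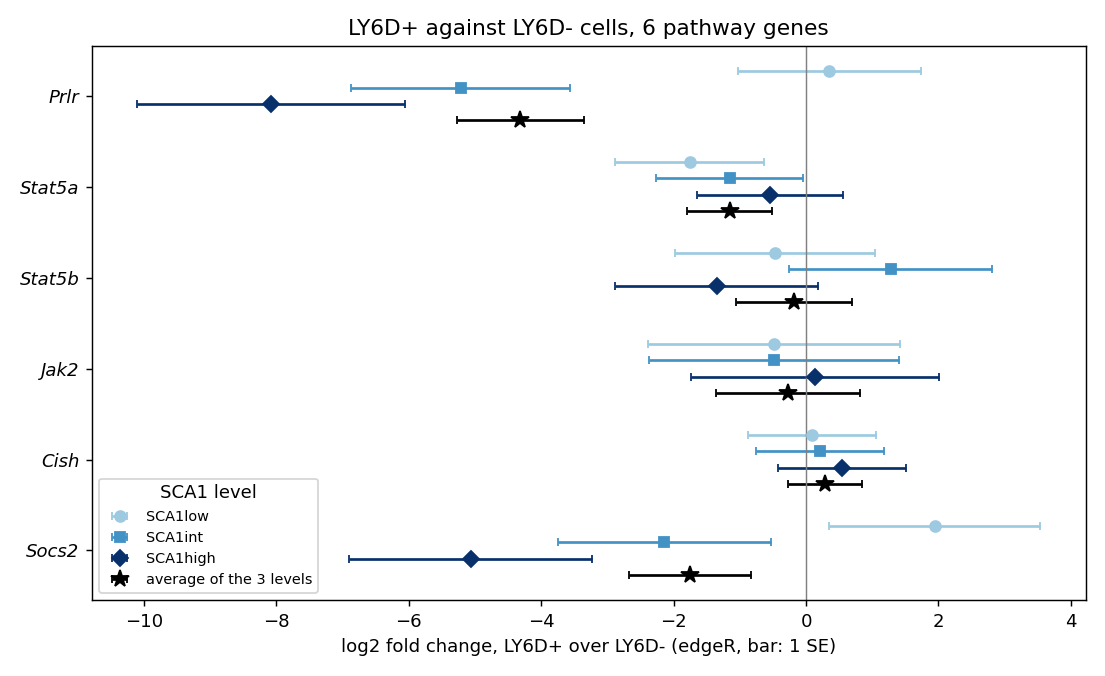
Log2 fold change of LY6D+ over LY6D- cells for the 6 genes at each SCA1 level and on average (edgeR, bar 1 SE, 2 libraries per population). Prlr runs from 0.35 at SCA1low to -8.08 at SCA1high and averages -4.31, while the Cish values lie within 1 SE of 0.

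SCA1int against SCA1low compares no SCA1high library, although those libraries enter the shared estimate of spread. Prlr ranged from 0.324 to 85.7 CPM in the 4 SCA1int libraries and from 50.5 to 169 CPM in the 4 SCA1low libraries, and these ranges overlapped. The log2 fold change was -3.63 ± 1.08 (edgeR adjusted p = 0.303). Of the 6 genes edgeR called 0, while Prlr and Jak2 were the 2 with an unadjusted p under 0.05, and DESeq2 called 1 (Prlr, -3.79 ± 0.97, adjusted p = 0.00534). Of all tested genes edgeR called 0.334% and DESeq2 5.92%, and 9.65% had an unadjusted p below 0.05 in edgeR. With the SCA1high libraries out of the fit the Prlr value was -3.63 ± 0.86 (edgeR adjusted p = 0.0509). Of the 19 alternatives 3 called Prlr in this step. These were DESeq2 and edgeR without LY6D+ SCA1high replicate 2 (-3.65) or without LY6D- SCA1low replicate 1 (-3.94).

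The same step was then compared between the LY6D states. In log2(CPM + 1) the mean of Prlr differed by -5.84 between SCA1int and SCA1low in LY6D+ cells, and by -0.82 in LY6D- cells. The test of the difference itself, the interaction, gave a log2 value of -5.57 ± 2.09 (edgeR adjusted p = 0.547). In that test edgeR and DESeq2 each called 0 of the 6 genes, and Prlr alone had an unadjusted p under 0.05. Of all tested genes edgeR called 0.0589% and DESeq2 4.52%, and 9.09% had an unadjusted p below 0.05.

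As a description, in SCA1high against SCA1low cells averaged over LY6D the Prlr log2 fold change was -7.55, and it was -3.92 in SCA1high against SCA1int cells. Prlr ranged from 0 to 20.1 CPM in the SCA1high libraries, against 50.5 to 169 CPM in the SCA1low libraries. The share of all tested genes that lay apart between these levels was not counted.

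Gsdma and Atp6v1c2 led the genes whose levels ran most like those of Prlr. Pearson's r of log2(CPM + 1) over the 12 libraries was computed for 8096 genes, and 11 had an r above 0.9. The closest was Gsdma, a gasdermin gene, at 0.95, followed by Atp6v1c2 (0.94), a subunit gene of the proton pump V-ATPase, and Plac8 (0.94). Pbsn, which encodes the androgen-regulated secreted protein probasin, had 0.92. Isoc2a, Dnajc10, which encodes a disulfide reductase of the endoplasmic reticulum, and Msmb, which encodes the secreted beta-microseminoprotein, each had 0.91. These values are over libraries that share populations and depth, and these 7 genes were picked for their high r.

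The break in LY6D+ cells between SCA1low and the other levels was shared by Gsdma, Atp6v1c2 and Plac8. Gsdma averaged 119 ± 95.1, 1.3 ± 1.61 and 0.0674 ± 0.0954 CPM in LY6D+ cells from SCA1low to SCA1high (SD of 2 libraries). In LY6D- cells it averaged 222 ± 46.0, 64.3 ± 27.8 and 3.64 ± 4.38 CPM. Plac8 averaged 72.4 ± 32, 0.61 ± 0.71 and 0.0225 ± 0.0318 CPM in LY6D+ cells, and 48.4 ± 40.7, 69 ± 37.2 and 1.31 ± 1.74 CPM in LY6D- cells. Atp6v1c2 averaged 54 ± 10.1, 1.83 ± 2.21 and 0.163 ± 0.103 CPM in LY6D+ cells, and 184 ± 94.2, 30.6 ± 2.97 and 15.6 ± 21.4 CPM in LY6D- cells. Msmb averaged 672 ± 70.5, 45.1 ± 7.46 and 32.2 ± 26.5 CPM in LY6D+ cells, also lowest at SCA1high. Pbsn averaged 3455 ± 644, 263 ± 114 and 102 ± 3.85 CPM there, and its lowest library held 99.5 CPM in LY6D+ SCA1high.

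**Figure D3:**
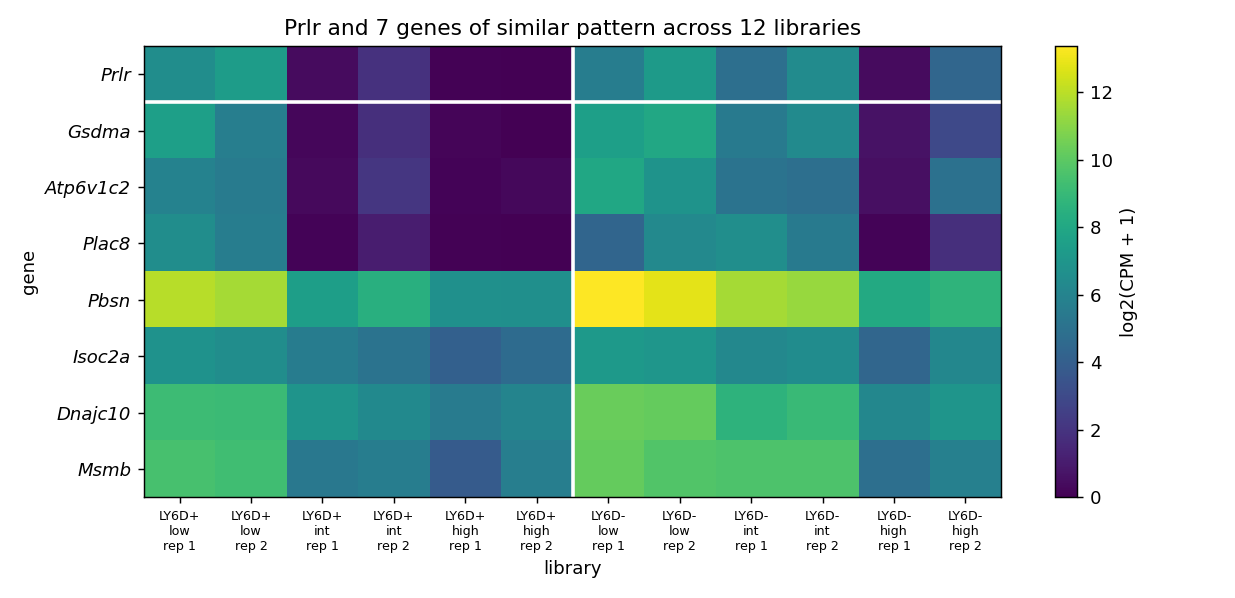
Level of Prlr and of 7 genes with a Pearson r above 0.9 with it, as log2(CPM + 1), in each of the 12 libraries (LY6D+ left, LY6D- right, SCA1 low to high). Prlr, Gsdma, Atp6v1c2 and Plac8 are at or near 0 in both LY6D+ SCA1high libraries, while Pbsn keeps at least 99.5 CPM in each library.

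Some cell type markers ran with Prlr and others did not. The summed level of 6 luminal markers (Krt8, Krt18, Pbsn, Spink1, Msmb and Cd24a) was 13176 to 22253 CPM in LY6D+ SCA1low, 1202 to 2095 CPM in LY6D+ SCA1int and 1041 to 1206 CPM in LY6D+ SCA1high. It was 43288 to 84151, 27341 to 31604 and 2350.4 to 4356 CPM in LY6D- cells in the same order. None of these 6 genes was at 0 in any library, and Pbsn and Msmb stand in this list and among the genes most like Prlr. Spink1 and Pbsn carried most of that sum. In LY6D+ cells Krt8 had 98.7 and 133 CPM at SCA1low, 85.2 and 66.4 CPM at SCA1int, and 131 and 120 CPM at SCA1high. Cd24a had 79.3 and 87.7, 111 and 69.4, and 69.1 and 103 CPM in the same order. Both genes overlapped between SCA1low and SCA1high. Krt18 did not, with 502 and 313 CPM at SCA1low, 130 and 128 CPM at SCA1int, and 145 and 161 CPM at SCA1high. The 5 basal markers (Krt5, Krt14, Krt15, Krt17 and Trp63) summed to 1497 to 2135 CPM in LY6D+ SCA1low, 2338 to 3588 CPM in LY6D+ SCA1int and 3721 to 4114 CPM in LY6D+ SCA1high. In LY6D- cells they summed to 34.5 to 133, 1317 to 1516 and 310 to 323 CPM, again with none at 0. Krt15 carried most of the basal sum in each library. The 6 seminal vesicle markers summed to 2158 to 11568, 280 to 695 and 324 to 325 CPM in LY6D+ cells from SCA1low to SCA1high, and to 426 to 4497, 1116 to 2908 and 213 to 439 CPM in LY6D- cells, with 0 to 3 of them at 0. The 8 fibroblast and smooth muscle markers summed to 787 to 1269 CPM in LY6D+ and 211 to 711 CPM in LY6D- libraries, with 0 to 3 at 0. Dcn carried most of the LY6D+ sum, with 641 to 894 CPM in LY6D+ and 159 to 482 CPM in LY6D- libraries. Col1a1, Col1a2, Col3a1, Lum, Pdgfra, Acta2 and Myh11 each overlapped between the LY6D states. The part of these cell types in the Prlr result was not tested, and in such bulk libraries fewer cells of a type and less RNA per cell cannot be told apart.

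JAK2, the kinase that the receptor uses, showed another order along SCA1. Jak2 (ENSMUSG00000024789, chromosome 19, 29251828 to 29313080, plus strand) had 1.38 and 2.41 CPM in LY6D+ SCA1low, 33.4 and 5.08 CPM in LY6D+ SCA1int, and 34.6 and 62.6 CPM in LY6D+ SCA1high. Its levels in LY6D- cells were 2.26 and 3.03 CPM at SCA1low, 0.154 and 53.7 CPM at SCA1int, and 22 and 66.3 CPM at SCA1high. All 4 SCA1low libraries were low and all 4 SCA1high libraries high, while the SCA1int libraries lay anywhere between 0.154 and 53.7 CPM. How many of all tested genes part SCA1low from SCA1high libraries in this way was not counted. In SCA1int against SCA1low the log2 fold change was 3.34 ± 1.46 (edgeR adjusted p = 0.498), and without LY6D- SCA1int replicate 2 it was -0.44. Between LY6D+ and LY6D- cells it was -0.28 ± 1.09 on average (adjusted p = 0.963). As a description, the value for SCA1high against SCA1low was 4.37, opposite in sign to that of Prlr. Over the 12 libraries the r between Jak2 and Prlr was -0.57 (Spearman -0.55), and the closest gene to Jak2 was Crybg3 (r = 0.99).

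Of the STAT5 genes, Stat5a was the more variable. Stat5a (ENSMUSG00000004043, chromosome 11, 100859351 to 100885169, plus strand) and Stat5b (ENSMUSG00000020919, chromosome 11, 100780731 to 100850724, minus strand) encode closely related proteins and lie head to head, 8626 bases apart. How reads that match both were handled is not given in the sources used here. Stat5a had 58.6 and 62.7 CPM in LY6D+ SCA1low, 94.5 and 40.6 CPM in LY6D+ SCA1int, and 51.4 and 0.588 CPM in LY6D+ SCA1high. In LY6D- cells it had 98.9 and 310 CPM at SCA1low, 144 and 156 CPM at SCA1int, and 31.1 and 44.9 CPM at SCA1high. At SCA1low and at SCA1int each LY6D+ library lay below each LY6D- library, while at SCA1high they overlapped. Of all tested genes 20.5% lay lower without overlap at SCA1low.

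On average Stat5a had a log2 fold change of -1.15 ± 0.64 in LY6D+ against LY6D- cells (edgeR adjusted p = 0.32), which did not pass. LY6D+ SCA1high held the most discordant pair of Stat5a libraries, with 1144 counts in replicate 1 and 5 in replicate 2. Without replicate 1 of that population, which leaves only its library with 5 counts, the average was -2.96. Without replicate 2, 1 of the 2 libraries that had stood apart in earlier work, it was -0.90. Without both of those libraries it was -0.46. Of the 19 alternatives 1 called Stat5a on average. As a description, the SCA1high against SCA1low value was -1.82, with 0.588 to 51.4 CPM in SCA1high and 58.6 to 310 CPM in SCA1low libraries. The share of all tested genes that lay apart in this way was not counted. Of the other members Stat5a ran most like Prlr, with r = 0.60 (Spearman 0.69) over the 12 libraries. The last 72 bases of Stat5a overlap Stat3 on the opposite strand, and with the strand setting not given, reads there cannot be told apart. Stat3 ran from 1263 to 12219 counts per library, and the ratio of Stat3 to Stat5a counts varied from 0.979 to 548, so the 2 counts did not run in parallel.

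Stat5b was steady within populations. It had 20.1 and 22.2 CPM in LY6D+ SCA1low, 58.1 and 39.5 CPM in LY6D+ SCA1int, and 13.8 and 16.3 CPM in LY6D+ SCA1high. The LY6D- libraries held 25.2 and 33.7 CPM at SCA1low, 17.0 and 23.3 CPM at SCA1int, and 38.4 and 38.5 CPM at SCA1high. Of the 5 neighbouring pairs of populations, 1 overlapped, the fewest among the 6 genes, a count not set against all tested genes. Its SD within populations was 0.24 in log2(CPM + 1), and 0% of the 2379 tested genes within 0.5 log2 units of its mean level had a smaller one (median 1.64). LY6D+ libraries lay below LY6D- libraries at SCA1low and SCA1high and above them at SCA1int, where 19.4% of all tested genes lay higher without overlap. Its average log2 fold change in LY6D+ against LY6D- cells was -0.18 ± 0.87 (edgeR adjusted p = 0.979). The error comes from a fit that shares information on spread between genes, whose common biological coefficient of variation was 1.28.

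The feedback gene Cish was read at a similar level in most libraries. CISH, a SOCS-family protein, binds phosphorylated cytokine receptors and limits STAT5 activation, and its gene is a textbook STAT5 target. The Cish window (chromosome 9) is shown because it held 2 matches to TTCNNNGAA, separated by 2 bases, where 0.457% of all windows held 2 or more. The 30 bases around them, chr9:107296654-107296683 (plus strand, GRCm38.p6, from RefSeq), have the matches in capitals, and the first begins at the RefSeq start.
Cish: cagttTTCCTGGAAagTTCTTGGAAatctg

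Cish (ENSMUSG00000032578, chromosome 9, 107296026 to 107302784, plus strand) had 73.8 and 78.8 CPM in LY6D+ SCA1low, 53.8 and 84.8 CPM in LY6D+ SCA1int, and 90.3 and 90.4 CPM in LY6D+ SCA1high. In LY6D- cells it had 82.0 and 61.8 CPM at SCA1low, 26.8 and 92.8 CPM at SCA1int, and 75.2 and 48.8 CPM at SCA1high. The LY6D+ SCA1high libraries, where Prlr had 1 and 0 counts, lay above 9 of the other 10 libraries. At SCA1high they stood above both LY6D- libraries, which 15.3% of all tested genes also did. The average log2 fold change in LY6D+ against LY6D- cells was 0.28 ± 0.56 (edgeR adjusted p = 0.867). The span of 2 SE on either side ran from -0.83 to 1.4. The r between Cish and Prlr was -0.15 (Spearman -0.22). An antisense gene, Gm17041, lies within the last exon of Cish and had 427 to 1245 counts, 0.448 to 0.966 times those of Cish in each library. Without a known strand setting the 2 genes cannot be told apart, and some Cish reads may stand under the other name.

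Socs2 varied widely between replicates. SOCS2, like CISH, is a feedback inhibitor, best known for limiting growth hormone signalling through STAT5. Socs2 (ENSMUSG00000020027, chromosome 10, 95385362 to 95417180, minus strand) had 1.15 and 99.9 CPM in LY6D+ SCA1low, 1.02 and 37.1 CPM in LY6D+ SCA1int, and 8.36 and 0.353 CPM in LY6D+ SCA1high. Socs2 in LY6D- cells had 7.42 and 18.9 CPM at SCA1low, 24.6 and 143 CPM at SCA1int, and 89.2 and 206 CPM at SCA1high. Replicates differed by a factor of 23.7 to 86.9 in the LY6D+ populations and of 2.3 to 5.82 in the LY6D- populations. All 5 neighbouring pairs of populations overlapped. The SD of Socs2 within populations was 2.34 in log2(CPM + 1), the highest of the 6 genes on that scale and above that of 97.7% of 1645 genes of like level.

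At SCA1high the Socs2 libraries of LY6D+ cells lay below those of LY6D- cells, with a log2 fold change of -5.06 ± 1.83 (edgeR adjusted p = 0.405), which did not pass. It passed in 3 of the 19 alternatives. These were DESeq2 (-5.22 ± 1.60, adjusted p = 0.0202) and edgeR without LY6D+ SCA1low replicate 1 (-5.35) or without LY6D- SCA1low replicate 2 (-5.35). On average over SCA1 levels the log2 fold change was -1.75 ± 0.92 (adjusted p = 0.285). That average passed in 2 of the 19 alternatives, without LY6D+ SCA1int replicate 2 (-3.14) and without LY6D+ SCA1low replicate 2 (-3.59). The genes closest to Socs2 over the 12 libraries were Irgm2, an interferon-inducible GTPase gene (r = 0.94), and Ephb4, an ephrin receptor gene (r = 0.93). Ephb4 was highest in LY6D+ SCA1low replicate 2, at 77.7 CPM, against 46.1 and 36.7 CPM in LY6D- SCA1high.

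Endothelial markers were highest in LY6D- SCA1high, the population with the highest mean of Socs2, but single libraries did not all follow. The 8 endothelial genes (Pecam1, Cdh5, Kdr, Flt1, Tek, Tie1, Emcn and Egfl7) summed to 18 to 76.9 CPM in LY6D+ SCA1low, 12.1 to 159 CPM in LY6D+ SCA1int and 174 to 255 CPM in LY6D+ SCA1high. In LY6D- cells they summed to 167 to 535, 748 to 1012 and 2652 to 2699 CPM from SCA1low to SCA1high. In 1 library, LY6D+ SCA1int replicate 1, 1 of the 8 was at 0 (Cdh5), and in the others none was. LY6D+ SCA1low replicate 2 had more Socs2 (99.9 CPM) than LY6D- SCA1high replicate 1 (89.2 CPM). Their endothelial sums were 76.9 and 2652 CPM. The part of endothelial transcripts in the Socs2 values was not tested. The 8 leukocyte markers summed to 3.76 to 54.2 CPM over all libraries, with 3 to 7 of them at 0, and Ptprc, which encodes CD45, had 0 to 4 counts per library.

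**Figure D4:**
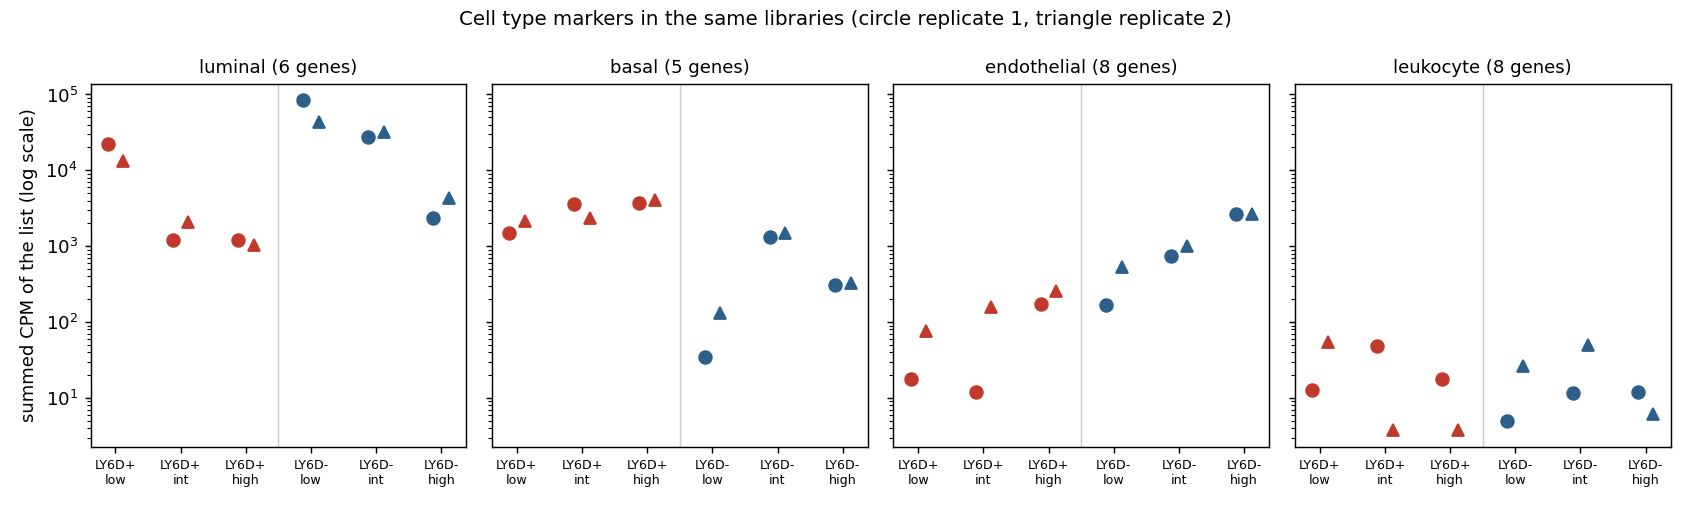
Summed CPM of luminal, basal, endothelial and leukocyte markers in the 12 libraries, on a log axis (circle replicate 1, triangle replicate 2; LY6D+ red, LY6D- blue; SCA1 low to high). Luminal markers are at 13176 or more in LY6D+ SCA1low and at 1206 or less in LY6D+ SCA1high, and endothelial markers reach 2652 to 2699 in LY6D- SCA1high.

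Around the 6 genes, 83 other genes of the pathway were listed as ligands, receptors, JAK and STAT genes, adaptors, inhibitors and STAT5 targets, and 63 were tested. In LY6D+ against LY6D- cells on average, 0 of the 63 were called higher and 1 lower, or 1.59%, where 2.48% of all tested genes were called, and DESeq2 called 11 of them and 16% of all genes it tested. The median log2 fold change of the 63 was -0.05, against 0.03 for all tested genes. The gene called was Sh2b3, which encodes the adaptor LNK, a brake on JAK2 signalling. It ranged from 0 to 1.57 CPM in LY6D+ libraries and from 2.58 to 80.1 CPM in LY6D- libraries. In LY6D- cells, from SCA1low to SCA1high, Sh2b3 had 80.1, 45.8 and 48.9 CPM in replicate 1 and 8.74, 12.5 and 2.58 CPM in replicate 2. Its log2 fold change was -5.74 ± 1.52 (edgeR adjusted p = 0.0381). That call was kept in 8 of 19 alternatives, with adjusted p from 2.24e-07 to 0.133. With a replicate block it was -5.13 ± 1.5 and did not pass (adjusted p = 0.0526). Leaving out 1 library ended it in 8 of 12 fits, with log2 fold changes between -6.19 and -4.63. It held without LY6D+ SCA1high replicate 1 (-7.92) and without replicate 2 of LY6D- SCA1low, SCA1int or SCA1high (-6.07 to -5.97).

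Within single SCA1 levels, in the SCA1int step and in the interaction, edgeR called 0 of the 63. Unadjusted p-values below 0.05 numbered 12, 4 and 10 at SCA1high, SCA1int and SCA1low, 13 in the SCA1int step and 5 in the interaction. The shares of all tested genes with such a p were 11.7%, 6.17%, 12%, 9.65% and 9.09%. DESeq2 called 9, 3, 9, 5 and 5 of the 63 in the same order, and 8.21%, 3.94%, 12.6%, 5.92% and 4.52% of all genes it tested.

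Prolactin, the ligand, was not detected as a transcript. Prl had 0 counts in every library, where 3 counts would be 0.127 to 0.353 CPM, and Gh, which encodes growth hormone, had 2 counts in all. Of 10 ligand genes 3 were tested, Il7, Il15 and Il2, and none was called.

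Of the other cytokine receptors, Csf2rb stood highest in LY6D- SCA1high. Of 17 receptor genes 12 were tested and 0 were called, with 6 at an unadjusted p below 0.05 for the LY6D average, as had 20.4% of all tested genes. Csf2rb, the shared beta chain gene of the GM-CSF receptor family, had 0.766 to 4.59 CPM in LY6D+ and 3.76 to 87.1 CPM in LY6D- libraries, highest at 66.2 and 87.1 CPM in LY6D- SCA1high. Its log2 fold change was -3.73 ± 1.11 (edgeR adjusted p = 0.0681). The median of the 12 was -3.73, against 0.03 for all tested genes, and the median log2 ratio of their summed CPM was -4.79. Several of the 12 were near the floor, among them Epor, Il2rg and Csf2ra, at 0.406, 0.875 and 1.66 CPM on average over all libraries. Endothelial markers were also highest in LY6D- SCA1high, and their part in the receptor values was not tested. Il6st, which encodes the cytokine receptor subunit gp130, had 43.4 to 142 CPM in LY6D+ and 22.4 to 190 CPM in LY6D- libraries. Il4ra had 0 to 29.2 CPM and 1.94 to 61.8 CPM. The growth hormone receptor gene Ghr averaged 18 CPM over all libraries and had a log2 fold change of -1.04 ± 1.27 (adjusted p = 0.726).

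Among the other JAK and STAT genes 0 of 8 were called in any comparison tested by edgeR. The most abundant was Stat3, at 281 to 448 CPM in LY6D+ and 136 to 518 CPM in LY6D- libraries, with a log2 fold change of 0.23 ± 0.27 (edgeR adjusted p = 0.716). Jak1 had 86.3 to 186 CPM in LY6D+ and 40.4 to 220 CPM in LY6D- libraries, and Stat6 4.6 to 70.3 CPM and 3.01 to 89.2 CPM. Of 13 adaptors and cofactors 0 were called. Ppia and Ppib, which encode cyclophilins A and B, and the kinase gene Src were the most abundant of these, at 234, 83.1 and 57.2 CPM on average.

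Of the 16 other inhibitors Sh2b3 was the only one called. Socs3, the inhibitor best known for acting on gp130 receptors, had 5.51 to 201 CPM in LY6D+ and 102 to 635 CPM in LY6D- libraries, highest at 635 and 513 CPM in LY6D- SCA1high. Its log2 fold change was -1.41 ± 0.48 (edgeR adjusted p = 0.102). The phosphatase gene Ptpn1 had 67.6 to 303 CPM in LY6D+ and 40.4 to 236 CPM in LY6D- libraries, and Socs7 had 37.0 to 309 CPM and 21.5 to 156 CPM.

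Of 19 STAT5 target genes 11 were tested, and 0 were called between LY6D states. The milk protein genes Csn1s1, Csn2, Csn3, Wap and Lalba, the classic targets in mammary epithelium, had 3, 1, 1, 0 and 0 counts over all libraries. In SCA1high against SCA1low cells edgeR called 2 of the 11 higher, Ccnd1 and Mcl1, where 1.21% of all tested genes were called and 0.432% were called higher. Ccnd1, the cyclin D1 gene, ranged from 363 to 668 CPM in SCA1high and 80.8 to 263 CPM in SCA1low libraries (1.59 ± 0.35, edgeR adjusted p = 0.0143). Mcl1, a survival gene of the BCL2 family, ranged from 411 to 612 CPM and 87.5 to 314 CPM (1.43 ± 0.35, adjusted p = 0.0346). The Ccnd1 call was kept in 12 and the Mcl1 call in 9 of 19 alternatives. With RLE size factors neither was called, at 1.3 and 1.17, and leaving out LY6D+ SCA1high replicate 2 ended both calls, at 1.28 and 1.19. The Ccnd1 call also ended without LY6D+ SCA1low replicate 1 or without replicate 2 of LY6D- SCA1high or LY6D- SCA1low (1.29 to 1.44). The Mcl1 call ended in 6 further such fits (1.16 to 1.49). Id2 had 69.4 to 276 CPM in LY6D+ and 40.7 to 140 CPM in LY6D- libraries.

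**Figure D5:**
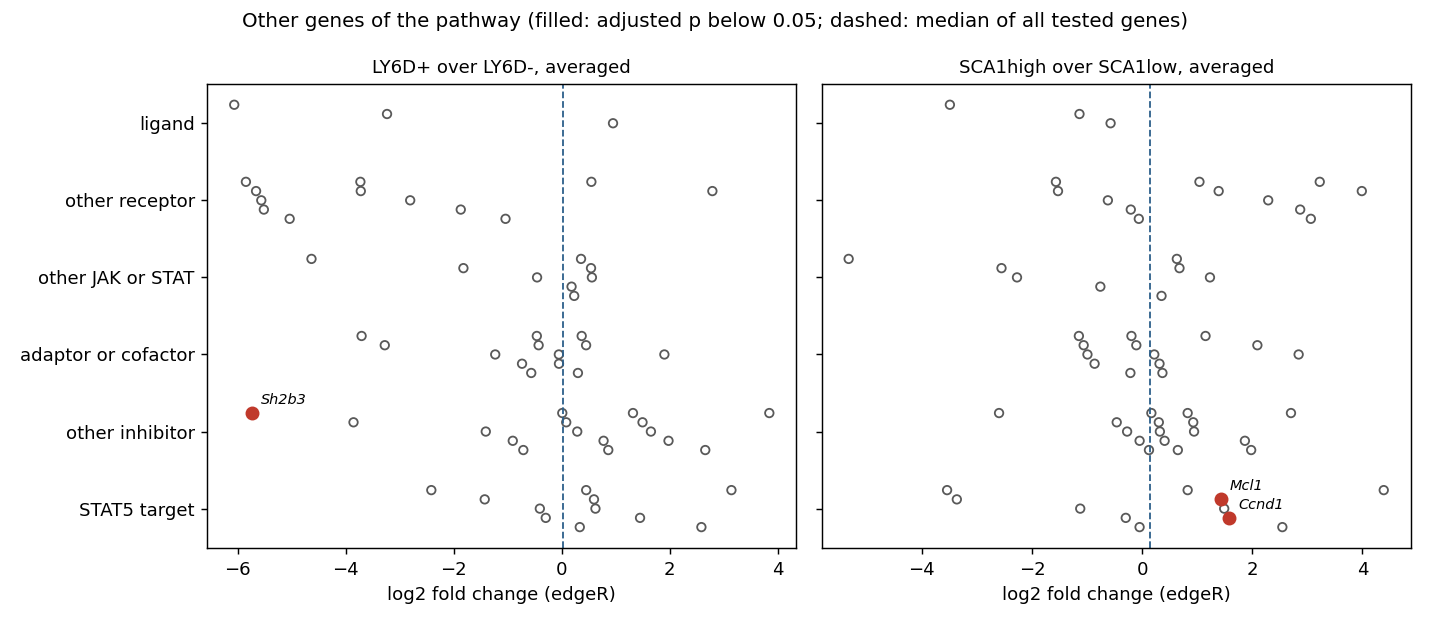
Log2 fold changes of 63 other genes of the pathway, by list, in LY6D+ over LY6D- cells averaged over SCA1 (left) and in SCA1high over SCA1low cells averaged over LY6D (right); filled points have an edgeR adjusted p below 0.05 and the dashed line is the median of all tested genes. Sh2b3 is the filled point at -5.74 on the left, and Ccnd1 and Mcl1 are at 1.59 and 1.43 on the right.

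Over the 12 libraries the measured levels of the 6 genes were not closely correlated as a set. Of the 15 pairs among the 6 genes the highest r was 0.60, for Prlr and Stat5a, and the lowest -0.57, for Prlr and Jak2. Between Cish and Socs2, the feedback genes, r was -0.09. These values were not set against those of other groups of genes. They include the spread between replicates, up to 86.9-fold for Socs2 and 348-fold for Jak2.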

How the data were processed

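RNA of 12 libraries was read as 3' tags (Lexogen QuantSeq, per the labels' protocols). STAR 2.5.1, cutadapt 1.9.1, Picard 1.96, SAMtools 1.3.1, edgeR, Subread and featureCounts were used with build mm10, per the submitters' processing notes. The sources used here do not give the annotation or the strand setting. The authors deposited raw counts per Ensembl gene and normalised signal values. The signal is CPM scaled by 1 TMM factor a library, recovered with a relative spread of at most 5.2e-15. Symbols came from a table of gene names (48349 identifiers matched) and coordinates from GENCODE on GRCm38.

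Counts were tested in R 4.3.3 with edgeR 4.0.16: TMM, filterByExpr, then glmQLFit and glmQLFTest with a mean for each population across the 12 libraries and 6 residual degrees of freedom, called at an adjusted p below 0.05. The SE is the absolute log2 fold change over the square root of the F statistic. The calculation was checked on simulated data with less spread than these data, which does not show how the test behaves at their spread. All replicate 1 libraries share 1 prefix in the labels and all replicate 2 libraries another, and what the prefix marks is not stated. Replicate numbers were not taken to pair the libraries, since deviations of same-numbered libraries correlated above 0.1 in 2 of 15 pairs of populations (median 0.0098). That measure covers many genes and does not exclude a replicate effect in single ones. Prlr and Socs2 were higher in replicate 2 in every population but LY6D+ SCA1high, and Sh2b3 was higher in replicate 1 in each LY6D- population. Alternatives were RLE and library-size scaling, no filter, DESeq2 1.42.0, limma 3.58.1 on the deposited signal (log2 of value plus 1), a replicate block, both doubted libraries left out, and each library left out in turn. Named genes are the 6 members, called or most abundant genes of each list, and the closest by r. Csn, Wap, Lalba, Ghr and Gh, and the overlapping genes, were added after their values were seen. Among the 8 genes closest to Prlr and the luminal markers, 1 gene each is not reported here. Members and lists were chosen with earlier results of these data known. No molecular identifiers are named, so copies of the same molecule may be counted more than once. The exact intervals treat each read as separate and leave out the spread between libraries.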

Additional observations from a re-analysis of the deposited data

Results flagged for a closer look

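Stat5b was higher in LY6D+ than in LY6D- libraries at SCA1int and lower at SCA1low and SCA1high, without overlap at any of the 3 levels, which drew attention to it. The log2 fold changes of LY6D+ over LY6D- were -0.48 ± 1.51 at SCA1low, 1.28 ± 1.53 at SCA1int and -1.35 ± 1.53 at SCA1high (SE). The change between SCA1low and SCA1int was tested as an interaction and did not pass (1.75 ± 2.15, edgeR adjusted p = 0.832), and the change between SCA1int and SCA1high was not tested. Of all tested genes 20.5% lay lower without overlap at SCA1low, 19.4% higher at SCA1int and 21.6% lower at SCA1high.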

How the results depend on the processing

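The edgeR count of the 6 genes called in LY6D+ against LY6D- cells on average was 1, and was 0 with limma-trend and 0 to 2 when 1 library was left out. The counts of 0 became 1 without a filter and 2 with DESeq2 at SCA1high (0 to 2 with 1 library left out), 1 with DESeq2 at SCA1int, and 1 with DESeq2 in the SCA1int step (0 to 1). At SCA1low and in the interaction they stayed 0 in each alternative run. With the replicate block the Prlr average was -3.92, still called (adjusted p = 0.00745), and 0 calls among the 6 were lost, while the Sh2b3 call was (-5.13). With the SCA1high libraries out, the count for the LY6D average was 0 and Stat5b turned to 0.36 there. Signs turned for Jak2 on average (0.047 with the replicate block, 0.28 with limma-trend, -0.90 to 2.14 with 1 library left out), for Prlr at SCA1low (-0.024 with RLE and with DESeq2, -0.47 to 1.35 with 1 left out) and for Jak2 in the SCA1int step (-0.44 to 3.84 with 1 left out). The cause was not tested. For 18 further values of the 6 genes, none called, the sign turned in 49 of 342 recomputations. Genes called over the whole table numbered 379, 40, 31, 72, 51 and 9 in edgeR for the LY6D average, SCA1high, SCA1int, SCA1low, the SCA1int step and the interaction. With DESeq2 they numbered 2208, 1132, 532, 1663, 764 and 623, and with limma-trend 218, 11, 7, 57, 29 and 0. They were 518, 94, 52, 125, 71 and 20 without a filter, and 397, 87, 73, 118, 138 and 32 without both doubted libraries. RLE moved the median of all genes from 0.20 to -0.19 at SCA1low and from 0.21 to -0.03 in the SCA1int step. Library size as the only scaling moved it to 0.50 in that step.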
